A study of Mus musculus with 4 samples.

Results

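Full MGnD microglia, as named here, are brain macrophages in which several genes of the neurodegenerative microglial programme (MGnD, also called disease-associated microglia) were detected. They were selected on their own measured values, as barcodes with at least 1 UMI, a UMI being an RNA molecule counted once, of at least 4 of 8 programme genes: Clec7a, Itgax, Lpl, Cst7, Igf1, Axl, Fabp5 and Baiap2l2. Cells with a strong interferon response or in division were left out. A member had fewer than 4 of 10 interferon genes detected (Ifit1, Ifit2, Ifit3, Isg15, Rsad2, Usp18, Oasl1, Cxcl10, Slfn5 and Ifi204) and fewer than 3 of 6 cycling genes (Top2a, Mki67, Birc5, Prc1, Cenpf and Ube2c). Only barcodes holding 2000 or more UMIs and 500 or more genes, with no more than 10% of UMIs from mitochondrial genes, were considered. It selected 2172 of 12883 such barcodes, or 16.9%. The 24 genes of the rule are left out of every comparison of levels below, because they chose the cells.

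The cells came from 2 libraries of APP/PS1:miR-155 cKO mice, labelled as carrying a deletion of the microRNA miR-155 in microglia, and 2 libraries of APP/PS1 mice, labelled Control. APP/PS1 mice carry mutant human amyloid genes and form amyloid plaques, and both groups had these transgenes, so no library came from a brain without them. All mice were labelled female and 4 months old. CD11b+/CD45+ myeloid cells were sorted from the left hemisphere after a Percoll gradient and sequenced with 10x Genomics 3′ v3.1 chemistry. The Cre driver, the deleted part of the miR-155 locus and the number of mice behind a library are not given in the sources used here. The labels call the 2 libraries of a group biological replicates.

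In mouse amyloid models, microglia that touch plaques lower the genes of the resting, or homeostatic, state and raise a lipid-handling and phagocytic programme. That switch is known to need the receptor TREM2, its adaptor TYROBP and the lipoprotein APOE, and TGF-beta signalling is known to hold the homeostatic state. miR-155 is a microRNA that immune cells induce during inflammatory activation. It pairs through its seed, bases 2 to 8 of the mature strand, with sites in 3′ untranslated regions and lowers the mRNAs that carry them. The mature strand is shown because its seed defines the site searched for in the mRNAs. Capitals mark the seed, and RefSeq places the strand on the plus strand of chr16:84714143-84714165 (GRCm38.p6).
mmu-miR-155-5p: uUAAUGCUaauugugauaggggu

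A 3′ RNA library cannot show the mature strand, but the primary transcript Mir155hg was counted. Mir155hg had 0 and 0 UMIs in the MGnD cells of cKO replicates 1 and 2, against 5 and 5 UMIs in those of Control replicates 1 and 2. A count of 0 allows up to 3 UMIs, so these numbers are too small to measure the loss of miR-155, although they do not go against the labels. In low-state cells, which are defined below, it had 0 UMIs in all 4 libraries.

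Libraries stood apart in 3 ways that touch the results. Xist, the RNA of the inactive X chromosome, had 11971 and 5075 UMIs in cKO replicates 1 and 2, against 4 UMIs in Control replicate 1 and 9840 UMIs in Control replicate 2. Of 4 Y-linked genes Ddx3y and Eif2s3y had 0 UMIs in all 4 libraries, Kdm5d had 2 UMIs in cKO replicate 2 and Uty 1 UMI in Control replicate 1. The Xist count of Control replicate 1 is at odds with its label, female, yet Y-linked RNA was nearly absent too. The reason was not tested. The file name of cKO replicate 2 shows a code that differs from the code of the other libraries. What the code marks is not stated in the sources used here. Leaving this library out gives the comparison within the shared code. Free RNA, measured in barcodes of at most 100 UMIs, held 14.9% and 17.8% of the UMIs of cKO replicates 1 and 2, against 11.2% and 16.3% of those of Control replicates 1 and 2. Any 2 libraries shared at most 4 filtered barcodes and no MGnD barcode.

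MGnD cells made up 615 of 3585 barcodes of cKO replicate 1, or 17.2% (95% Wilson interval 16.0 to 18.4), and 256 of 2666 barcodes of cKO replicate 2, or 9.602% (8.54 to 10.8). They made up 789 of 3999 barcodes of Control replicate 1, or 19.7% (18.5 to 20.99), and 512 of 2633 barcodes of Control replicate 2, or 19.4% (17.98 to 21.001). These intervals cover counting error only. The share was 13.4% ± 5.34 in cKO and 19.6% ± 0.201 in Control libraries (SD, n = 2 each), a difference of −6.21 percentage points. The cKO values were both under the lower Control value, and the exact two-sided permutation test gave p = 0.333, the smallest that 2 against 2 libraries can give. Leaving out cKO replicate 2 made the difference −2.43 points, and leaving out cKO replicate 1 made it −9.99 points. With every cell thinned to 2000 UMIs, the rule selected 7.48% and 3.71% of cKO barcodes, against 9.50% and 8.85% of Control barcodes.

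The share of low-state microglia, with at most 1 of the 8 MGnD genes detected and the same limits on interferon and cycling genes, was 58.8% and 68.6% in cKO, against 55.5% and 55.8% in Control libraries (exact permutation p = 0.333). Intermediate microglia, with 2 or 3 of the genes, made up 11.4% and 8.70% of cKO, against 10.9% and 9.95% of Control barcodes (exact permutation p = 1). Low-state and intermediate cells also had to show at least 3 of 12 microglia markers. Cells with at least 4 MGnD genes that the interferon limit removed numbered 183 and 90 in cKO, against 267 and 188 in Control libraries. They formed 22.9% and 26.0% of all such cells in cKO, against 25.3% and 26.9% in Control (exact permutation p = 0.667).

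**Figure D1:**
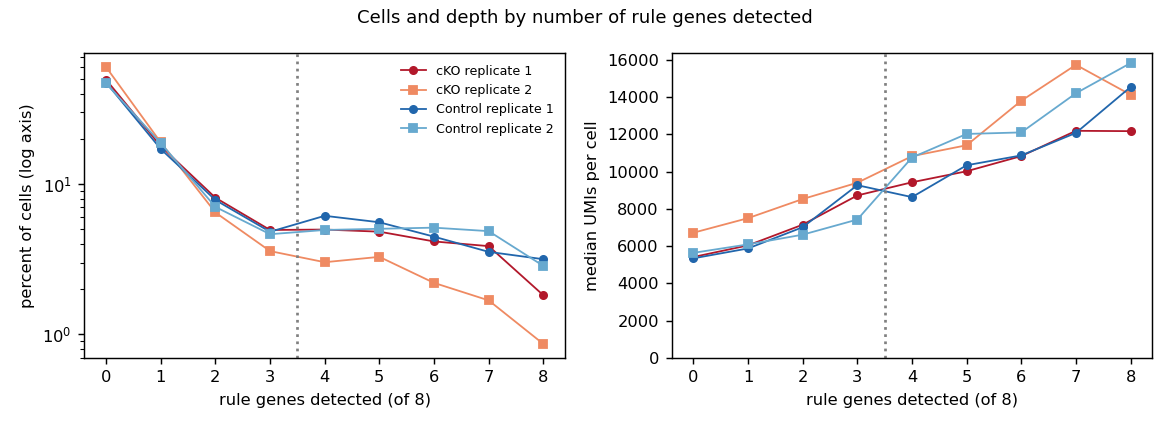
Percent of cells (left, log axis) and median UMIs per cell (right) by the number of the 8 MGnD genes detected, 1 line per library, with a dotted line at the threshold between 3 and 4 genes. The share of cells drops steeply up to 3 genes and more slowly beyond the threshold, where cKO replicate 2 lies lowest, and median depth is higher at 8 genes than at 0 in all 4 libraries.

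The threshold did not fall in a gap. Just inside it, at 4 genes, lay 156 and 70 cKO cells and 212 and 111 Control cells, and just outside it, at 3 genes, lay 83 to 166 cells of a library. All 8 genes were detected in 57 and 20 cKO cells and in 109 and 64 Control cells. MGnD cells were deeper than the rest, with a median of 10624 and 13264 UMIs in cKO and 11096 and 12694 UMIs in Control libraries, while low-state cells had 5544 and 6863 UMIs in cKO and 5472 and 5773 UMIs in Control libraries. Detection depends on depth, so the part of depth in membership and that of RNA content cannot be told apart. In 2000 UMIs, free RNA at its share of the library's UMIs would by itself show at least 4 of the genes in 0.000215% to 0.00766% of cases. Most members held more UMIs than that, and the share of free RNA within cells was not measured.

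All MGnD cells had at least 2 of 12 microglia markers. P2ry12, the purinergic receptor of resting microglia, was detected in 96.4% and 98.0% of cKO MGnD cells and in 98.2% and 98.0% of Control MGnD cells. Sall1, a transcription factor of microglial identity, was detected in 76.6% and 80.1% in cKO and 79.1% and 79.1% in Control libraries. Border-associated macrophage markers summed to 7.97 and 7.26 counts per 1e+06 UMIs (CPM) in cKO, against 7.55 and 3.99 CPM in Control MGnD cells, with 2 of 8, Cd163 and Lyve1, at 0. Monocyte markers summed to 12.2 and 11.4 CPM in cKO, against 6.22 and 5.71 CPM in Control MGnD cells, with 2 of 8, Ly6c2 and Hp, at 0. B-cell markers summed to 247 and 260 CPM in cKO, against 271 and 240 CPM in Control MGnD cells, led by Ighm, with Pax5 and Igkc among those at 0. Choroid plexus markers summed to 141 and 1346 CPM in cKO, against 213 and 554 CPM in Control MGnD cells. At least 2 of 8 oligodendrocyte markers, led by Mbp, were found in 19.1% to 23.0% of the MGnD cells of a library. In low-state cells, which were less deep, this was 8.71% to 12.4%. For astrocyte markers the ranges were 5.47% to 7.03% and 0.953% to 1.13%, and for B-cell markers 14.7% to 22.3% and 12.1% to 14.9%. Oligodendrocyte markers summed to 82.5 to 91.7 CPM in MGnD and 95.3 to 101 CPM in low-state cells. The 12 microglia markers together held 28713 to 30956 CPM. Among the genes of the rule, which are a description only, Clec7a was found in 97.6% to 98.4% of the MGnD cells of a library, Cst7 in 95.7% to 98.9% and Igf1 in 53.2% and 39.5% in cKO and 54.1% and 53.1% in Control libraries.

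Levels of genes outside the rule are described by state with no test, because the rule chose the cells by this contrast. Values are CPM of the UMIs summed over the cells of a state in a library, and ratios are log2((CPM + 1) in MGnD cells over (CPM + 1) in low-state cells) within a library. Among 5038 genes of at least 30 CPM in the higher state, 118 were at least 2-fold higher in MGnD cells in all 4 libraries (2.34%) and 71 at least 2-fold lower (1.41%). Of the same genes 992 were higher in MGnD cells in all 4 libraries by any amount (19.7%) and 3361 lower (66.7%). The 12 genes per direction put forward had the largest ratio in the library where it was smallest.

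The lipoprotein gene Apoe, which loads lipid for export and is needed for the MGnD switch, had by far the highest level of them. It had 9882 and 8333 CPM in the MGnD cells and 769 and 680 CPM in the low-state cells of the cKO libraries, and 7931 and 10071 CPM in the MGnD cells and 377 and 640 CPM in the low-state cells of the Control libraries. Its log2 ratio was 3.61 to 4.39 over the 4 libraries. Spp1, the secreted matrix protein osteopontin, had 74.98 and 50.02 CPM in the MGnD cells and 0.941 and 1.19 CPM in the low-state cells of the cKO libraries, and 49.1 and 108 CPM in the MGnD cells and 0.621 and 1.37 CPM in the low-state cells of the Control libraries. Ch25h makes 25-hydroxycholesterol, an oxysterol that restrains sterol synthesis, and averaged 61.3 CPM in MGnD cells against 0.544 CPM in low-state cells, with log2 ratios of 4.81 to 5.70. The transcription factor gene Bhlhe40 averaged 35.3 CPM in MGnD cells against 0.721 CPM in low-state cells (4.02 to 5.002). The fatty-acid carrier gene Fabp3 averaged 39.4 CPM against 1.23 CPM (3.83 to 4.38). The pyrophosphate transporter gene Ank averaged 369 CPM against 27.3 CPM (3.58 to 3.82). Cox6a2, a heart and muscle form of a cytochrome c oxidase subunit, averaged 144 CPM in MGnD cells against 9.41 CPM in low-state cells (3.62 to 4.06). Others were Lgi2, Etl4, Lilrb4a and Chst2.

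The levels also followed the number of rule genes detected. Averaged over the 4 libraries, Apoe stood at 531 CPM in cells with none of the 8 genes, 1778 CPM with 2, 5063 CPM with 4, 9091 CPM with 6 and 15573 CPM with all 8. The climb went on among the MGnD cells themselves. Ch25h stood at 0.452, 2.21, 34.2, 68.2 and 112 CPM at the same numbers of genes. P2ry12 ran the other way, at 3074, 2421, 1656, 1382 and 1149 CPM, and Tmem119, a surface protein of resting microglia, stood at 1364, 1118, 753, 535 and 387 CPM. Spp1 stood at 0.708, 5.59, 24.9, 55.3 and 130 CPM, but its libraries crossed, with 222 and 46.6 CPM in cKO against 114 and 139 CPM in Control cells at 8 genes.

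**Figure D2:**
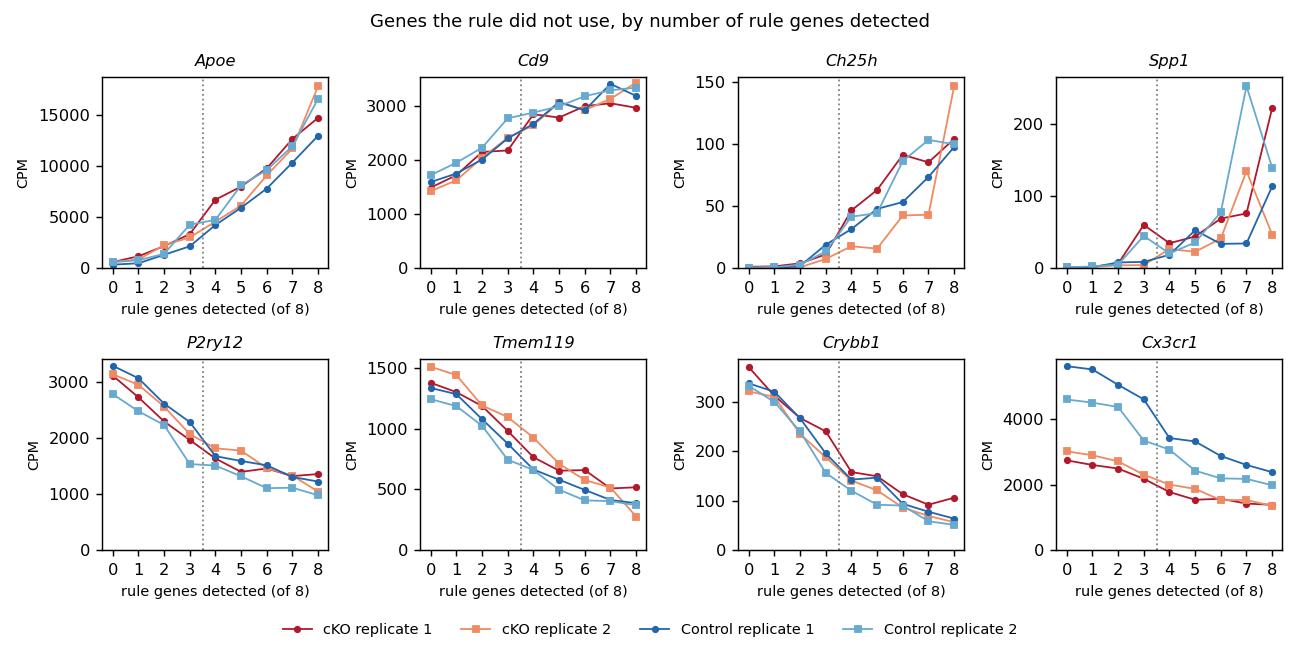
CPM in the summed cells of a library (vertical axes from 0) of genes outside the rule, by the number of the 8 MGnD genes detected, 1 line per library, with a dotted line at the threshold between 3 and 4. Apoe climbs on both sides of the threshold to 15573 CPM on average at 8 genes, while P2ry12 and Tmem119 go down to 1149 and 387 CPM.

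Of the genes lower in MGnD cells, Bank1, a scaffold of B-cell receptor signalling that microglia also express, averaged 17.1 CPM in MGnD cells against 73.7 CPM in low-state cells (log2 ratios −2.44 to −1.80). Ecscr averaged 120 CPM against 397 CPM (−1.93 to −1.54), and Crybb1, a crystallin gene that marks mature microglia, 105 CPM against 331 CPM (−1.95 to −1.47). Il7r, a receptor chain for interleukin-7, averaged 18.7 CPM in MGnD cells against 63.7 CPM in low-state cells. The lectin receptor gene Clec4a2 averaged 29.0 CPM against 106 CPM, and Camk2n1, an inhibitor of calcium/calmodulin-dependent kinase, 54.5 CPM against 179 CPM. The other 6 were Ggta1, Tspan18, Serpinf1, Ms4a6b, Mtss1 and Tgm2.

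By role, the MGnD programme outside the rule was the group furthest from the rest, and the lists had been written with earlier results in view. Of its 35 genes of at least 30 CPM, 24 were past 2-fold higher and none past 2-fold lower, with a median log2 ratio of 1.49, beside −0.28 over all 5038 genes. Csf1, the ligand of the microglial survival receptor, averaged 190 CPM in MGnD cells against 22.9 CPM in low-state cells. The tetraspanin gene Cd63, of late endosomes, averaged 1474 CPM against 454 CPM. Trem2 itself, the receptor for lipids and apolipoproteins, differed less, at 4271 CPM against 2313 CPM. Of 45 homeostatic genes, 43 were lower in MGnD cells in every library, beside 66.7% of all genes, and 9 past 2-fold, with a median of −0.68, and Serpine2, a protease inhibitor, was the 1 gene past 2-fold higher (974 CPM against 389 CPM).

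Metabolic lists differed in size. Of 14 glycolytic genes 6 were past 2-fold higher, with a median of 0.97, and Pkm, the pyruvate kinase of the last step, averaged 359 CPM in MGnD cells against 116 CPM in low-state cells. Of 48 nuclear genes of the respiratory chain 1 was past 2-fold higher, Ndufa1, and 40 were higher in all 4 libraries, beside 19.7% of all genes (median 0.46). The 13 mitochondrially encoded genes had a median of 0.53 and none past 2-fold. Of 20 lipid genes 8 were past 2-fold higher (median 0.23), and of 43 lysosomal genes 6 (median 0.38), among them the protease genes Ctsb, at 3132 CPM against 1232 CPM, and Ctsd, at 13436 CPM against 5955 CPM. Hif1a, the oxygen-sensing factor that switches on glycolytic genes, averaged 362 CPM in MGnD cells against 117 CPM in low-state cells.

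The chemokine genes Ccl6 (888 CPM against 140 CPM), Ccl4 (1084 CPM against 301 CPM) and Ccl3 (1151 CPM against 350 CPM) were among 5 of 18 cytokine genes past 2-fold higher. The MHC class II chaperone Cd74 averaged 295 CPM in MGnD cells against 71.6 CPM in low-state cells, while H2-Eb1, a class II beta chain, ranged in log2 ratio from −0.01 to 1.70 over the libraries. Immediate-early genes, which respond to any stimulus and to handling of the tissue within minutes, were the reverse: 24 of 27 were lower in MGnD cells in every library, beside 66.7% of all genes (median −0.74), with Fos at 745 CPM against 1724 CPM. The heat-shock gene Hspa1a averaged 92.5 CPM in MGnD cells against 255 CPM in low-state cells. Of 19 reported miR-155 target genes none was higher in MGnD cells in all 4 libraries and all 19 were lower, beside 19.7% and 66.7% of all genes (median −0.58).

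The main question of the design, what the deletion did, was tested in the MGnD cells on UMIs summed per library with edgeR's two-sided quasi-likelihood F test and p-values adjusted by Benjamini and Hochberg's method, at 0.05. CPM values from here on are scaled with TMM factors, log2 fold changes are cKO over Control, and n is 2 libraries per group throughout. The rule did not use genotype. Of 11402 genes tested outside the rule 7 passed, or 0.0614%: 6 higher (0.0526%) and 1 lower (0.00877%). At an unadjusted p under 0.05 stood 829 genes (7.27%), 437 of them higher. Both cKO libraries lay on 1 side of both Control libraries for 39.5% of the genes tested, so a lack of overlap alone says little. Among the 6 that rose were the MHC class II genes H2-Aa, H2-Eb1 and Cd74 and the heat-shock genes Hspa1a and Hspa1b, and the 1 that fell was Cx3cr1. Without cKO replicate 2, which left 1 cKO library to be judged by the spread of the Control libraries, none of the 7 passed and no other gene did, with 417 genes (251 higher and 166 lower) at an unadjusted p under 0.05. Without cKO replicate 1, Control replicate 1 or Control replicate 2 the number of genes was 13, 8 or 6.

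MHC class II molecules present peptides from engulfed protein to CD4+ T cells. Their alpha and beta chains pair inside the cell with the invariant chain, the product of Cd74. H2-Aa, the alpha chain of the I-A molecule (chr17:34282744-34287823, minus strand, GRCm38), had 64.4 and 118 CPM in cKO MGnD cells, against 34.5 and 33.8 CPM in Control MGnD cells. Both cKO libraries were above the Control libraries, which lay close together. Its mean was 91.2 ± 37.9 CPM in cKO against 34.1 ± 0.460 CPM in Control (SD), and its log2 fold change was 1.37 (SE 0.21, adjusted p 0.0324). H2-Eb1, the beta chain of the I-E molecule (chr17:34305867-34316674, plus strand), had 41.0 and 70.8 CPM in cKO, against 19.5 and 17.4 CPM in Control MGnD cells. The log2 fold change was 1.53 (SE 0.20, adjusted p 0.0173). Cd74, on chromosome 18, had 316 and 449 CPM in cKO, against 189 and 218 CPM in Control MGnD cells, a log2 fold change of 0.91 (SE 0.14, adjusted p 0.0324). In all 3 the level in cKO replicate 2 was the higher of the 2 cKO values.

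The partner chain H2-Ab1 (chr17:34257689-34269419, plus strand) had 109 and 155.4 CPM in cKO, against 68.2 and 79.7 CPM in Control MGnD cells, and did not pass (log2 fold change 0.82, adjusted p 0.0645). Other genes of the machinery went in both directions. H2-DMa and H2-DMb1, which load the peptide, had log2 fold changes of −0.07 and −0.10, the class II-associated protease gene Ctss 0.04, and Rfx5 and Rfxank, 2 subunits of the complex that switches class II promoters on, 0.08 and −0.39. None of these 5 passed. Of 12 class II genes tested, 3 rose past the threshold. In sign, 9 were positive and 3 negative, the latter H2-DMa, H2-DMb1 and Rfxank. The median was 0.15 beside 0.01 for all genes.

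Each of the 3 class II calls held in 11 of 19 other settings, which were not all the same for the 3 genes. Without cKO replicate 2 the log2 fold changes were 0.91 for H2-Aa (adjusted p 0.254), 1.14 for H2-Eb1 (0.254) and 0.64 for Cd74 (0.954). Without Control replicate 1 they were 1.38 (0.192), 1.63 (0.0993) and 0.80 (0.219), and without Control replicate 2 1.35 (0.187), 1.47 (0.1497) and 1.01 (0.1497), in the same order. With DESeq2 they were 1.41 (adjusted p 0.597), 1.59 (0.177) and 0.91 (0.516). The calls were also lost with at least 5 rule genes, with fewer than 2 interferon genes and with the rule applied to cells thinned at random to 2000 UMIs, where adjusted p ran from 0.0563 to 0.295. In the thinned setting the counts tested were themselves thinned, from 268 and 99 cKO and 380 and 233 Control cells. Only 5704 genes were tested there, so it cannot tell a change of members from the loss of counts. With RLE size factors H2-Aa (adjusted p 0.0548) and Cd74 (0.0574) did not pass, nor did H2-Eb1 without cells that had at least 2 of Hspa1a, Hspa1b and Dnajb1 (0.152). Monocyte markers moved with genotype, at the levels given above. Dendritic-cell markers, led by Fscn1, summed to 159 and 183 CPM in cKO, against 160 and 143 CPM in Control MGnD cells. In low-state cells they summed to 245 to 291 CPM. The part of monocytes or dendritic cells in these values was not tested. With every cell left out that had a UMI of any border macrophage marker or of 2 monocyte markers, an alternative chosen after seeing the data, the log2 fold changes were 1.59 for H2-Aa (adjusted p 0.000944), 1.70 for H2-Eb1 (0.00419), 0.93 for Cd74 (0.00382) and 0.88 for H2-Ab1 (0.00999), all 4 past the threshold.

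The promoters of the 2 chain genes that rose are shown because both hold the Y box of class II promoters within 70 bases of their start. The stretches are the 120 bases before the annotated start, from RefSeq (GRCm38.p6), read along the gene, H2-Aa on the minus strand of chr17:34287824-34287943 and H2-Eb1 on the plus strand of chr17:34305747-34305866. Capitals mark the Y box, searched as CTGATTGG on both strands, which begins 51 and 62 bases before the start.
H2-Aa: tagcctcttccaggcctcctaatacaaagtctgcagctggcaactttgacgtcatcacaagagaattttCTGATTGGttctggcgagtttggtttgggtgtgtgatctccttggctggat
H2-Eb1: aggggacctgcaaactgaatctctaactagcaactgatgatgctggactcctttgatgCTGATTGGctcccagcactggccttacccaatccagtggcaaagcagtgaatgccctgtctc
The same letters stood in 1324 of 32544 promoters of 300 bases, or 4.07%. H2-Ab1 was not in the promoter table used.

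Class II RNA was concentrated in a minority of MGnD cells. At least 1 UMI of H2-Aa, H2-Ab1, H2-Eb1 or Cd74 was found in 76.3% and 84.0% of cKO cells, against 67.2% and 71.7% of Control cells, with a median of 2 and 3 UMIs in cKO cells against 1 and 1 UMI in Control cells. The 10% of cells with the most held 64.8% and 67.7% of these UMIs in cKO and 65.3% and 65.7% in Control libraries. With each cell thinned to 2000 UMIs, cells with at least 2 of the 4 genes, here called MHC-II-high, numbered 74 of 615 and 47 of 256 in cKO, against 51 of 789 and 31 of 512 in Control libraries. These shares were 12.03% (95% Wilson interval 9.69 to 14.8) and 18.4% (14.1 to 23.6) in cKO, against 6.46% (4.95 to 8.40) and 6.05% (4.30 to 8.47) in Control libraries. The mean was 15.2% ± 4.47 in cKO and 6.26% ± 0.289 in Control (SD), a difference of 8.94 percentage points, with an exact permutation p of 0.333, the smallest possible. Without cKO replicate 2 the difference was 5.77 points and without cKO replicate 1 it was 12.1 points. It was 4.22 points when 3 of the 4 genes were asked for and 15.3 points with cells not thinned.

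The same share was 4.40% and 9.48% of cKO intermediate cells, against 1.61% and 5.73% of Control intermediate cells, where the groups overlapped. Among low-state cells it was 0.996% and 1.97% in cKO, against 0.675% and 0.681% in Control. Droplets of free RNA alone, thinned alike, would reach it in 3.12% and 2.66% of cases in cKO and 2.04% and 5.56% in Control libraries. At the share that free RNA has of a library's UMIs, at most 0.183% would. The low-state shares lay below those of droplets of free RNA alone in all 4 libraries, and above those at its share of the library's UMIs.

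HSPA1A and HSPA1B are the inducible HSP70 chaperones, which refold protein after heat or other stress, and their genes lie next to each other with nearly identical sequence. Hspa1b (chr17:34956436-34959238, minus strand) had 89.1 and 98.0 CPM in cKO MGnD cells, against 38.4 and 25.7 CPM in Control MGnD cells. Its log2 fold change was 1.51 (SE 0.14, adjusted p 0.0011), and the groups did not overlap. Hspa1a (chr17:34969190-34972156, minus strand) had 108 and 169 CPM in cKO, against 56.8 and 29.6 CPM in Control MGnD cells, a log2 fold change of 1.62 (SE 0.23, adjusted p 0.0305). Reads that match both genes could be split between them or dropped, so the 2 values are not independent.

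Of 25 heat-shock genes tested these 2 rose, and the median was 0.07. The small heat-shock gene Hspb1 had 16.9 and 26.9 CPM in cKO against 8.34 and 3.20 CPM in Control (log2 fold change 1.77, adjusted p 0.0645), and the co-chaperone gene Dnajb1 75.7 and 107 CPM against 56.6 and 53.5 CPM (0.70, adjusted p 0.109). Neither passed. Without cKO replicate 2 the log2 fold change of Hspa1b was 1.45 (adjusted p 0.518) and that of Hspa1a 1.28 (0.954), and without Control replicate 2 that of Hspa1a was 1.25 (0.124). The call of Hspa1a was also lost with DESeq2 (1.67, adjusted p 0.99994), RLE size factors (adjusted p 0.0524) and at least 5 rule genes (0.0559). Both calls were lost with rule and test on thinned counts, at 0.69 for Hspa1a (0.863) and 1.11 for Hspa1b (0.760). Without the cells that had at least 2 of Hspa1a, Hspa1b and Dnajb1 before thinning, they stood at 1.12 (0.526) and 1.04 (0.783). That filter removes cells by the genes tested, so it cannot judge these 2 calls.

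The low-state cells showed the same genes at higher levels. Hspa1a had 262 and 450.5 CPM in cKO low-state cells, against 175 and 124 CPM in Control low-state cells, and the log2 fold changes of Hspb1 and Dnajb1 there were 0.98 and 0.40. Cells with at least 2 of Hspa1a, Hspa1b and Dnajb1 after thinning, called heat-shock-high, made up 3.74% and 7.81% of cKO MGnD cells, against 2.41% and 0.781% of Control MGnD cells (exact permutation p = 0.333). The difference of 4.18 points was 1.35 points when all 3 genes were asked for, 13.6 points with cells not thinned, 1.89 points with the rule applied to thinned cells, 2.57 points without cells with markers of another type and 2.15 points without cKO replicate 2. They made up 16.3% and 28.0% of cKO low-state cells, against 11.53% and 8.10% of Control low-state cells. Free RNA moved with these shares. Droplets of free RNA alone would be heat-shock-high in 17.5% and 54.2% of cases in cKO, against 13.8% and 5.06% in Control libraries. At the share that free RNA has of a library's UMIs, the values were 0.592% and 4.38%, against 0.252% and 0.164%. The part of free RNA in the 2 calls was not tested.

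The promoters of the pair are shown because their letters bear out how alike the genes are. The stretches are the 120 bases before the start, from RefSeq (GRCm38.p6), on the minus strand of chr17:34972157-34972276 for Hspa1a and chr17:34959239-34959358 for Hspa1b. They agree at 119 of 120 bases. Capitals mark the heat-shock element searched, GAANNTTC, which begins 104 bases before the start in both. The letters of the Y box also occur in both, 70 bases before the start.
Hspa1a: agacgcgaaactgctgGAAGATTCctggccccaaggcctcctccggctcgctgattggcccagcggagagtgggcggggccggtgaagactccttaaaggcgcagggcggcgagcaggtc
Hspa1b: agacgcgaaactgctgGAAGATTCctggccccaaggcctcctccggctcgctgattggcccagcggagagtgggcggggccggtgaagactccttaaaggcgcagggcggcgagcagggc
The element's letters stood in 2567 of 32544 promoters, or 7.89%, and also in the H2-Aa promoter, 58 bases before the start and overlapping the Y box.

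Cx3cr1, the receptor for the neuronal chemokine fractalkine and a homeostatic gene, was the 1 gene that fell. It had 1528 and 1660.3 CPM in cKO MGnD cells, against 2951 and 2520.5 CPM in Control MGnD cells (chr9:119901616-120069879, minus strand). The mean was 1594 ± 93.7 CPM in cKO against 2736 ± 304 CPM in Control (SD), with a log2 fold change of −0.78 (SE 0.12, adjusted p 0.0324). The low-state cells gave the same picture, with 2677 and 2894 CPM in cKO against 5540 and 4771 CPM in Control, and Cx3cr1 passed there and in intermediate cells too (log2 fold changes −0.89 and −0.88). In low-state cells 4 of 12406 genes rose (0.0322%) and 4 fell (0.0322%), and in intermediate cells 7 of 10486 rose (0.0668%) and 6 fell (0.0572%). Of 45 homeostatic genes Cx3cr1 alone passed, and 35 had positive log2 fold changes (median 0.09). Without the cells that had at least 2 of Hspa1a, Hspa1b and Dnajb1 before thinning, 21 were positive (median −0.00343). Without Control replicate 2, 27 were positive (0.01). P2ry12 stood at 0.09 and Tmem119 at 0.31 (adjusted p 0.605), with 622 and 638 CPM in cKO against 517 and 497 CPM in Control MGnD cells. Several microglial Cre driver lines replace a copy of Cx3cr1, the labels name no driver, and the part of the driver in this value was not tested. Without cKO replicate 1, cKO replicate 2 or Control replicate 1 the log2 fold change was −0.72, −0.84 or −0.67, with adjusted p of 0.317, 0.954 and 0.144, and with RLE size factors it was −0.78 (adjusted p 0.0524).

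**Figure D3:**
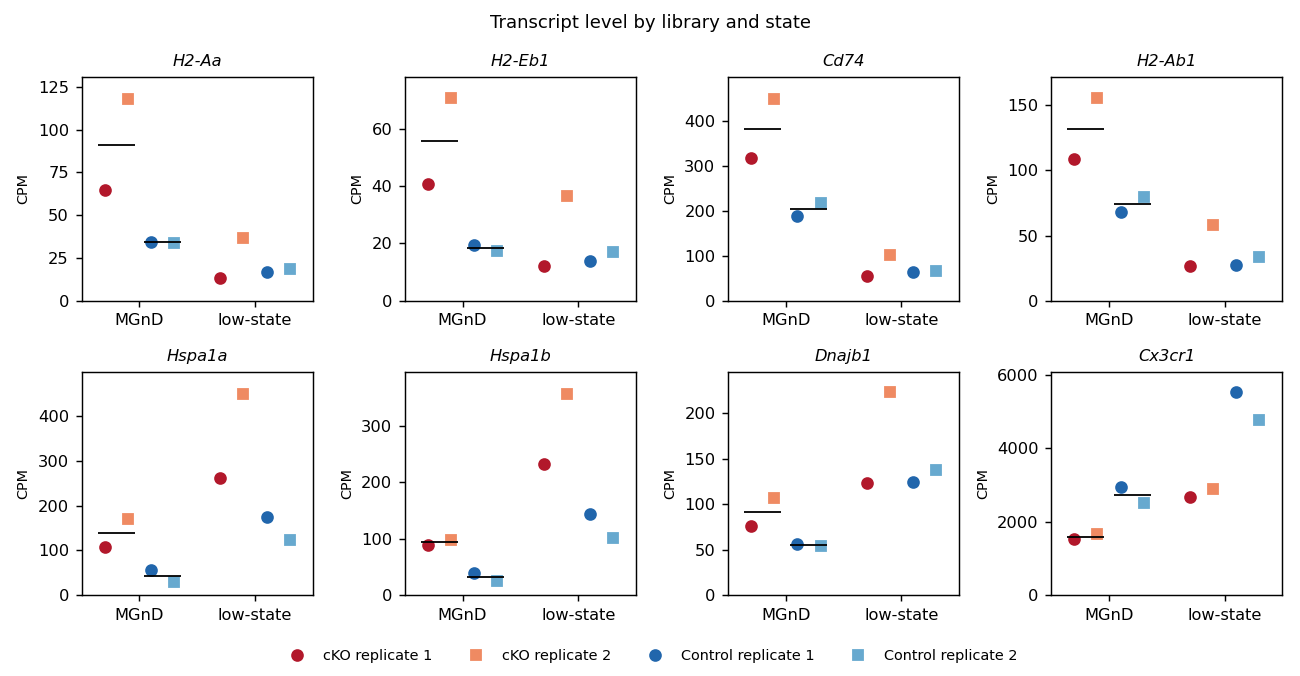
CPM (vertical axes from 0) of genes named in the text in MGnD cells (left) and low-state cells (right) of each library, 1 point per library, with a black line at the mean of each genotype in MGnD cells. H2-Aa lies at 64.4 and 118 CPM in cKO against 34.5 and 33.8 CPM in Control MGnD cells, while Cx3cr1 lies lower in cKO in both states.

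By position, 4 of the 6 genes that rose lie within 714 kb of chromosome 17. This was looked at after the values were seen. Between H2-Ab1 and Hspa1a (chr17:34257689-34972156) 25 genes were tested, of which these 4 passed, 16 had positive and 9 negative log2 fold changes, and the median was 0.11. Within 10 Mb on each side of Cx3cr1, 100 genes were tested, Cx3cr1 was the 1 that passed, and the median was 0.03.

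The rule for named genes also put forward genes that did not pass. Higher in both cKO libraries were Cdkn1a, the p53-induced cell-cycle inhibitor p21 (52.0 and 54.4 CPM in cKO against 33.9 and 23.3 CPM in Control, log2 fold change 0.86, adjusted p 0.0644), Il7r (0.94, adjusted p 0.0686), the collagen-processing gene Crtap (0.64, 0.101) and the TNF receptor gene Tnfrsf1b (0.56). Cdkn1a and Crtap passed in low-state cells. Lower in both were Cybb, the catalytic subunit of the phagocyte oxidase (31.4 and 29.7 CPM in cKO against 47.9 and 46.2 CPM in Control, −0.62, adjusted p 0.0645), and Glb1, lysosomal beta-galactosidase (64.1 and 58.9 CPM against 88.6 and 89.4 CPM, −0.52, adjusted p 0.0645). Others in that direction were Idi1, Nenf, Rbm3, Cirbp, Ccdc88a, Plaur, Minar1, Isoc1 and Hist1h2ac. The largest fold of any listed gene was that of Cxcl9, a chemokine induced by interferon-gamma, with 12.3 and 50.6 CPM in cKO against 5.08 and 2.44 CPM in Control MGnD cells. Its cKO libraries lay far apart and it did not pass (2.82, adjusted p 0.116).

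Gene lists are given by their counts and medians, without a test of the list, beside the median of 0.01 over all genes tested, of which 5869 of 11402 were positive. Apart from the genes named above, no member of the 26 lists passed. Scaling by total UMIs in place of TMM factors moved the median of all genes to 0.09, and the list medians by about as much. Immediate-early genes stood furthest to the higher side, with 33 of 34 positive, a median of 0.29 and 17 at an unadjusted p under 0.05. Fos had 733 and 1029 CPM in cKO against 708 and 487 CPM in Control MGnD cells, and Cebpb, a factor of myeloid activation, 177 and 208 CPM against 151 and 144 CPM. The median of the list was 0.10 in low-state cells, 0.21 without cKO replicate 2 and 0.17 without the cells that had at least 2 of Hspa1a, Hspa1b and Dnajb1 before thinning, which numbered 149 and 89 in cKO and 140 and 72 in Control MGnD cells.

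Lists furthest to the lower side were the mitochondrially encoded genes, with 0 of 13 positive and a median of −0.34, the sterol genes, with 1 of 24 positive (−0.29), and the cytosolic ribosomal proteins, with 0 of 81 positive (−0.23). The nuclear respiratory genes had 3 of 48 positive (−0.17), and the MGnD genes outside the rule 4 of 43 (−0.17). Of these 43 genes, 25 were lower in both cKO libraries than in both Control libraries, a pattern that 19.4% of all genes tested showed in that direction and 20.1% in the other. Ank had 350 and 312 CPM in cKO against 395 and 428 CPM in Control MGnD cells, Cox6a2 136 and 104 CPM against 150 and 192 CPM, and Gpnmb 6.96 and 7.23 CPM against 10.2 and 11.1 CPM. Apoe overlapped between the groups, with 9717 and 8019 CPM in cKO against 7906 and 10755 CPM in Control. The sterol gene Idi1, an isomerase of the mevalonate pathway, had 14.9 and 9.73 CPM in cKO against 22.1 and 23.0 CPM in Control (log2 fold change −0.80, adjusted p 0.225).

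These medians shifted with single libraries and with the cells kept. Without the same heat-shock cells the median of the MGnD genes outside the rule was 0.02 and that of the sterol genes −0.07. Under total-UMI scaling the MGnD list stood at −0.08. Without Control replicate 2 the mitochondrially encoded genes stood at −0.10, and the median mitochondrial share per MGnD cell was 2.83% and 2.71% in cKO, against 2.94% in Control replicate 1 and 3.64% in Control replicate 2. The part of these differences in the list medians was not tested.

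The other lists lay between. Interferon-gamma induced genes had 23 of 29 positive (median 0.15), p53 response genes 14 of 18 (0.16), cytokines and chemokines 18 of 30 (0.13), NF-kB genes 20 of 26 (0.12) and Trem2 signalling genes 16 of 25 (0.11). MHC class I genes had 17 of 23 positive (0.10), TGF-beta genes 21 of 25 (0.10), transcription factors of microglial state 20 of 31 (0.11) and purinergic genes 10 of 12 (0.11). Type I interferon-stimulated genes outside the rule had 27 of 51 positive (0.01), complement genes 9 of 12 (0.06), iron-handling genes 9 of 14 (0.06) and phagocytic receptors 11 of 21 (0.01). Lysosomal genes had 14 of 45 positive (−0.05), lipid genes 12 of 29 (−0.06) and glycolytic genes 6 of 18 (−0.03).

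**Figure D4:**
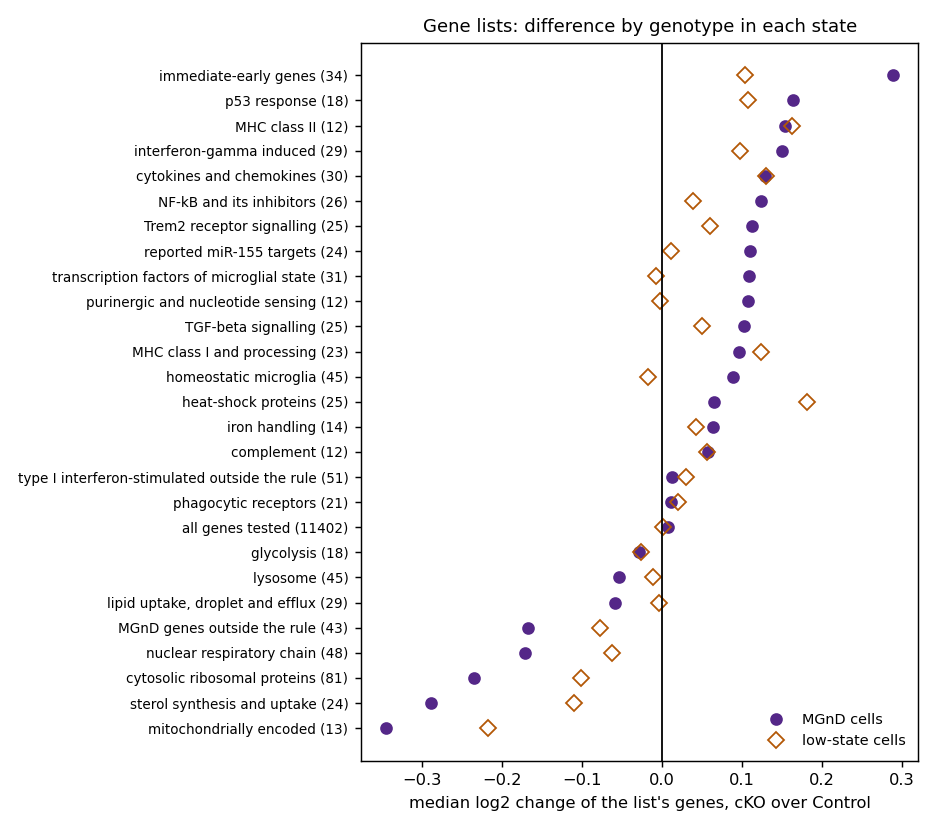
Median log2 change, cKO over Control, of each gene list (number of tested genes in brackets) in MGnD cells (filled points) and low-state cells (open diamonds). Immediate-early genes lie furthest right in MGnD cells at 0.29, and mitochondrially encoded genes furthest left at −0.34.

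Among other programmes scored per cell after thinning, cells with at least 3 of Tnf, Ccl3, Ccl4, Ccl2, Il1a, Il1b and Cd83 made up 27.5% and 27.3% of cKO MGnD cells, against 23.4% and 23.8% of Control MGnD cells (difference 3.77 points, exact permutation p = 0.333). With the rule applied to thinned cells the difference was 10.2 points. Droplets of free RNA alone would reach this in 19.6% to 24.9% of cases, and in at most 0.369% at its share of the library's UMIs. Cells with at least 3 of Fos, Jun, Junb, Egr1, Ier2 and Atf3 made up 66.3% and 72.7% of cKO, against 67.7% and 62.1% of Control MGnD cells, where the groups overlapped (p = 0.667, exact permutation). Droplets of free RNA alone would reach this in 96.5% and 99.9% of cases in cKO, against 97.5% and 93.6% in Control libraries. Those values ranked the libraries as the shares did. At the share that free RNA has of a library's UMIs they were 10.8% and 46.5%, against 6.64% and 9.17%, and ranked them otherwise. The part of free RNA in the shares was not tested. In low-state cells these were 94.9% and 97.4% in cKO, against 94.8% and 95.1% in Control. Cells with at least 2 of Spp1, Gpnmb, Lgals3 and Ch25h were rare, at 4.39% and 2.34% of cKO against 1.39% and 2.93% of Control MGnD cells (exact permutation p = 0.667).

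**Figure D5:**
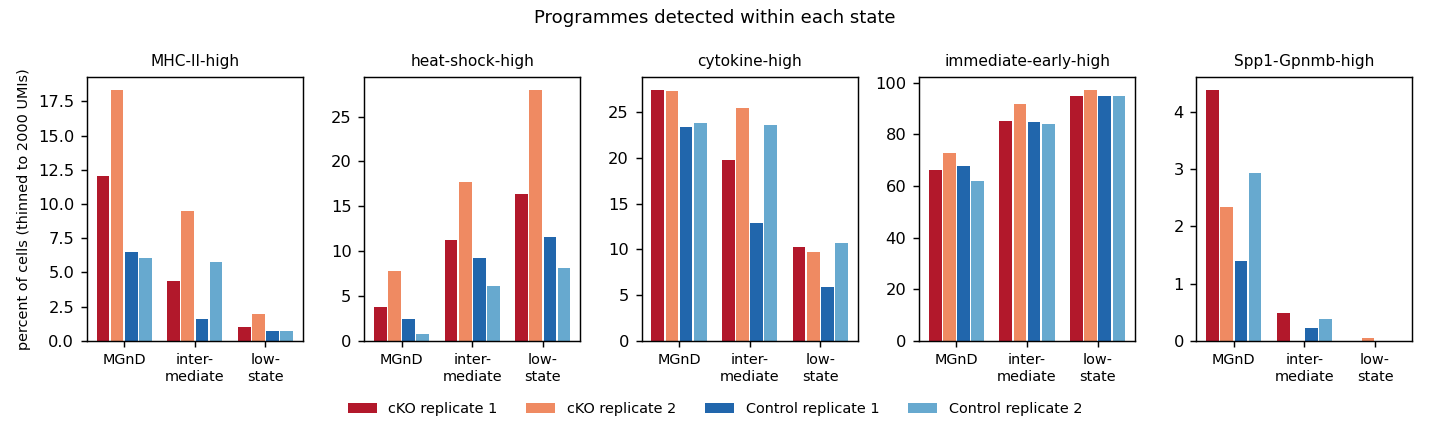
Percent of cells (bars from 0, 1 per library) that show each programme after thinning to 2000 UMIs, in MGnD, intermediate and low-state cells. MHC-II-high cells reach 12.03% and 18.4% in cKO against 6.46% and 6.05% in Control MGnD cells, and heat-shock-high cells are most frequent in low-state cells.

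Whether genotype differences in MGnD cells differed from those in low-state cells was tested with an interaction of genotype and state in edgeR's quasi-likelihood test, with the library as a block. Of 12285 genes 24 passed (0.195%), 17 with a higher value in MGnD cells (0.138%) and 7 with a lower one (0.0570%), and 1016 stood at an unadjusted p under 0.05 (8.27%). For Cd74 the cKO-over-Control difference was larger in MGnD cells by 0.64 on the log2 scale (adjusted p 0.000433), for H2-Aa by 0.95 (0.000692) and for H2-Eb1 by 0.96 (0.0118). H2-Aa had 13.2 and 36.5 CPM in cKO low-state cells, against 16.9 and 18.8 CPM in Control low-state cells, and Cd74 54.7 and 102 CPM against 62.8 and 65.9 CPM, so in low-state cells the groups overlapped for both. Hspa1a, Hspa1b and Cx3cr1 did not pass, with values of 0.42, 0.30 and 0.08. The call was lost without cKO replicate 1 for H2-Eb1 (0.62, adjusted p 0.0924). With cells showing border macrophage or monocyte markers left out, the calls of Cd74, H2-Aa and H2-Eb1 were lost. So were they without cells with markers of any other type, with at least 3 rule genes and with fewer than 2 interferon genes, at values of 0.20 to 1.34 and adjusted p of 0.239 to 0.986. H2-Aa and H2-Eb1 also lost their calls in thinned cells, and H2-Eb1 with the highest Scrublet scores removed. Of 14 settings, Cd74 passed in 10, H2-Aa in 9 and H2-Eb1 in 7.

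Among genes lower in this test was Apoe, at −0.59 (adjusted p 4.79e-07). Its low-state level was 764 and 661 CPM in cKO, against 375 and 670 CPM in Control, so Control replicate 1 stood apart there, while in MGnD cells the groups overlapped. Without Control replicate 1 the value was −0.40 (adjusted p 3.21e-05). The call was lost without cells with markers of another type (−0.25, adjusted p 0.832) and with the rule applied to thinned cells (−0.21, 0.929). The ferritin chain genes Fth1 and Ftl1, which store iron, stood at −0.33 and −0.27, the surface glycoprotein gene Cd52 at −0.51, Ccl4 at −0.47 and Id2, an inhibitor of helix-loop-helix factors, at −0.44. Cxcl9 stood at 2.70 (adjusted p 0.00777) and the immediate-early receptor gene Nr4a1 at 1.73 (0.0117). Cxcl9 did not pass without Control replicate 2 (1.47, adjusted p 0.600), nor did Nr4a1 without cKO replicate 2 (1.22, adjusted p 0.460). The same holds for Ftl1 without cKO replicate 2 (−0.20, adjusted p 0.312) and Id2 without Control replicate 2 (−0.33, adjusted p 0.0705).

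The 4 largest interaction values belonged to Enpp2, Ttr, Ecrg4 and Igfbp2, genes of the choroid plexus epithelium, at 8.75, 7.995, 8.77 and 8.40. The cells behind Ttr were few. Ttr had 1019 and 4636 UMIs in cKO MGnD cells, of which 1017 and 4632 lay in the 2 highest cells of a library, and 1966 and 3633 UMIs in Control MGnD cells, of which 1950 and 3631 lay in the 2 highest cells. Choroid plexus markers summed to 0.290 and 2.53 CPM in cKO low-state cells, against 312 and 77.4 CPM in Control low-state cells. Against intermediate cells 2 of 11059 genes passed (0.0181%), Apoe at −0.39 (adjusted p 0.0032) and Cybb at −1.34 (adjusted p 0.00942), with 657 genes at an unadjusted p under 0.05 (5.94%).

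To look for sites of the microRNA, AGCATTA was searched, the 7-letter match to the seed, in the longest annotated 3′ untranslated region of each gene (GENCODE M21, GRCm38). The 1038 tested genes with a site had a median log2 fold change of 0.02 in MGnD cells, with 55.5% positive, and the 9450 without one 0.00, with 50.9% positive. None of the 7 genes that passed had a site. Of 24 reported targets of miR-155, 20 were positive, with a median of 0.11 in MGnD cells and 0.01 in low-state cells, and none passed. Sites of 6 of them are shown with 10 bases on each side, since the 1 sequence they share is what links these genes to the microRNA, and capitals mark the match.
Cebpb: ttccgtttcgAGCATTAaagtgaagac
Picalm: tttaaaactcAGCATTAgtgcattggg
Socs1: gctgtgccgcAGCATTAagtgggggcg
Inpp5d: gtttttaaaaAGCATTAaagaaaacca
Bach1: tgaacagtttAGCATTAagggttaatt
Spi1: cgccggccatAGCATTAacccgtcgcc
Cebpb had the largest log2 fold change of the 6, at 0.38 (adjusted p 0.429). Picalm, a clathrin adaptor and a risk gene of Alzheimer's disease, stood at 0.25, with 396 and 406 CPM in cKO against 344 and 331 CPM in Control MGnD cells. Socs1, a brake on cytokine receptors, stood at 0.29, the lipid phosphatase gene Inpp5d (SHIP1) at 0.14, the haem-responsive repressor gene Bach1 at 0.09 and Spi1, the myeloid master factor PU.1, at −0.10. None of the 6 passed.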

How the data were processed

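The members and the gene lists were chosen with earlier results of these data known. The authors deposited raw, unfiltered UMI counts per gene and barcode, for which the submitters' processing notes name Cell Ranger 4.0.0 and mm10; the deposited barcodes and feature names (other: no measurement) only label them. The 4 libraries held 33130800 to 47574406 UMIs over 32372 features, and sums over MGnD cells 3858120 to 9803640 UMIs. Counts of MGnD, intermediate and low-state cells were summed per library and tested with edgeR 4.0.16 in R 4.3.3 (filterByExpr, TMM, quasi-likelihood, 2 residual degrees of freedom, Benjamini-Hochberg over all tested genes), with DESeq2 1.42.0 as an alternative. Where libraries share mice or handling, p-values measure only the spread between these libraries. Shares were tested by exact permutation (Python 3.11.15, scipy 1.17.1). Doublets were scored with Scrublet (scanpy 1.11.5, rate 0.04) and removed, at 0.8% per 1000 cells, in an alternative only. Its own threshold called 3 of all 12883 filtered barcodes. For genotype the text names genes that passed with no overlap at an average of 4 or more on the log2 CPM scale, up to 12 per direction, filled up by p; it adds up to 3 members per list, 5 genes per direction for interactions and 12 for states. The fits were tested on simulated data. Libraries were not treated as paired, since the labels only number the replicates. The deviations of same-numbered libraries correlated at −0.0153 over 6429 genes, a single value that cannot show whether they were paired. Some genes are not reported here.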

Additional observations from a re-analysis of the deposited data

Results flagged for a closer look

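Genes are listed here when the cKO-over-Control difference in MGnD cells differed from that in another state by the test of the difference itself, edgeR's quasi-likelihood interaction with the library as a block, at an adjusted p under 0.05. Values are differences of log2 fold changes, MGnD minus the other state, from 2 libraries per genotype.

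Against low-state cells the values were larger in MGnD cells for the class II genes Cd74 (0.64), H2-Aa (0.95) and H2-Eb1 (0.96), for the chemokine gene Cxcl9 (2.70) and for Nr4a1 (1.73). The levels of H2-Aa in cKO replicate 2 were above those in cKO replicate 1 in both states, at 118 and 64.4 CPM in MGnD cells and 36.5 and 13.2 CPM in low-state cells. Border macrophage and monocyte markers are given above for MGnD cells, and with the cells that show them left out the values were 0.45 for Cd74 (adjusted p 0.209), 0.87 for H2-Aa (0.170) and 0.89 for H2-Eb1 (0.302). The part of those cells in the full values was not tested.

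The values were smaller in MGnD cells for Apoe (−0.59), the ferritin genes Fth1 (−0.33) and Ftl1 (−0.27), Cd52 (−0.51), Ccl4 (−0.47) and Id2 (−0.44). Of these, Apoe, Fth1, Cd52 and Ccl4 held their side of the threshold without each library in turn. Fth1, Cd52 and Ccl4 did not pass without heat-shock-high cells (adjusted p 0.0843, 0.809 and 0.337). In thinned cells Apoe (0.929), Fth1 and Ccl4 did not pass. Without cells with markers of another type Apoe, Fth1 and Cd52 did not.

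The choroid plexus genes Enpp2 (8.75), Ttr (7.995), Ecrg4 (8.77) and Igfbp2 (8.40) had the largest values. Nearly all Ttr UMIs of MGnD cells lay in 2 cells per library, and with cells left out that had at least 2 choroid plexus markers the value of Ttr was −0.26.

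Against intermediate cells Apoe (−0.39) and Cybb (−1.34) had smaller values in MGnD cells. Apoe did not pass without cKO replicate 2 (−0.28, adjusted p 0.955), nor Cybb without cKO replicate 1 (−0.57, adjusted p 0.847).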

How the results depend on the processing

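For the number of genes that differed with genotype in MGnD cells, 7 with the fit reported, DESeq2 gave 4 (3 higher and 1 lower), RLE size factors 3, total UMIs 20, a filter of at least 1 UMI 84 (50 higher and 34 lower), at least 3 of 8 rule genes 27, fewer than 2 interferon genes 4, thinned cells 1, and leaving out cells with choroid plexus markers or with border macrophage or monocyte markers 19 each. Leaving out each library in turn gave 0 to 13. The replicate block gave 29 (22 higher and 7 lower). The labels only number the replicates, so the reported fit had no block. Deviations of same-numbered libraries correlated at −0.0153 over 6429 genes and 2 pairs. With 2 libraries per group this is a single value, which cannot show whether libraries were paired. Heat-shock-high cells, left out in settings below, are those with at least 2 of Hspa1a, Hspa1b and Dnajb1 before thinning. The number of interaction genes against low-state cells, 24, ran from 28 to 67 without each library in turn and was 44 with at least 5 rule genes, 7 with fewer than 2 interferon genes, 4 without cells with markers of another type, 7 without heat-shock-high cells and 3 with thinned cells. Against intermediate cells, 2, it ran from 2 to 57 without each library in turn and was 4 with fewer than 2 interferon genes, 0 from 1000 UMIs, 6 without cells with markers of another type, 4 without the highest Scrublet scores, 0 without heat-shock-high cells and 4 without choroid plexus markers. The cause was not tested for any of these. Of single-gene values under other settings, 1860 kept their direction and side of the threshold, 140 passed where the reported fit did not and 105 no longer passed.

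Settings with thinned cells also tested the thinned counts, with 5704 genes tested for genotype. Lost calls and changed signs there thus come with far fewer counts. Single values changed sign as follows. With the rule applied to thinned cells, log2 changes with genotype were −0.0336 for Tnfrsf1b, 0.20 for Hist1h2ac, −0.11 for Syk, 0.13 for Gpi1, 0.21 for Cox5a, 0.0154 for Ifi207, −0.26 for Nmi, −0.30 for Cebpd, −0.0100 for Id2, −0.26 for Egr1, −0.22 for Slc40a1 and 0.10 for Apoe. Without heat-shock-high cells they were −0.0240 for Stab1, 0.0209 for Gpi1, −0.0227 for Gbp7, −0.0351 for Egr1, −0.22 for Slc40a1, −0.0625 for P2ry12, 0.17 for Apoe and 0.0295 for Trem2. Apoe was also positive under total UMIs (0.0172), with fewer than 2 interferon genes (0.14), without cells with markers of another type (0.19) and without cKO replicate 2 (0.0570) or Control replicate 2 (0.17). Leaving out each library in turn, values ran from −0.28 to 0.17 for Apoe, −0.0836 to 1.83 for C4b, −0.11 to 11.68 for Xist and −0.00476 to 0.19 for P2ry12, the negative ends without Control replicate 1 for Apoe and Xist, cKO replicate 2 for C4b and Control replicate 2 for P2ry12. The difference in Spp1-Gpnmb-high cells was −0.0797 points when 1 gene more was asked for. Interaction values against low-state cells turned for Ttr to −0.50 without cells with markers of another type and −0.26 without choroid plexus markers, for Hspa1a to −0.30 in thinned cells, and for Cx3cr1 to −0.0326 without heat-shock-high cells. Against intermediate cells they turned for Enpp2 to −5.78 without Control replicate 1, −0.0373 with fewer than 2 interferon genes, −1.34 without heat-shock-high cells and −6.28 in thinned cells, for Cybb to 0.19 without cells with markers of another type and 0.46 in thinned cells, and for Ccl4 to 0.24 in thinned cells.

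Of the genes that passed, Hspa1b, Cx3cr1, Hspa1a, Cd74, H2-Aa and H2-Eb1 kept their sign in the settings tried, and the number of settings of 19 in which they passed was 16 for Hspa1b, 15 for Cx3cr1, 12 for Hspa1a and 11 for Cd74, H2-Aa and H2-Eb1. The setting without heat-shock-high cells removes cells by Hspa1a and Hspa1b themselves, so it cannot judge the calls of these genes. The filter on cells with 2 markers of another type removed 37.4% and 43.4% of cKO and 37.8% and 39.3% of Control MGnD cells, so its counts come from fewer cells. Depth limits Mir155hg and genes under about 10 CPM, and 2 libraries per group limit every share to an exact p of 0.333 or more.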

Other observations

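Other groups differed between MGnD and low-state cells, again as a description. The 80 cytosolic ribosomal protein genes of at least 30 CPM had a median log2 ratio of 0.85, with 8 past 2-fold higher. TGF-beta signalling genes had a median of −0.54 over 18 genes and purinergic genes −0.75 over 10, beside −0.28 over all genes. The transcription factor gene Maf, of the homeostatic state, averaged 413 CPM in MGnD cells against 939 CPM in low-state cells, and Slc40a1, the iron exporter ferroportin, 56.2 CPM against 150 CPM. The interferon-induced gene Ifi27l2a was higher in MGnD cells, at 585 CPM against 137 CPM, although cells with a strong interferon response had been left out. B2m, the light chain of MHC class I, averaged 3648 CPM against 1940 CPM.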
